A study of Mus musculus with 16 samples.

Results

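The gene expression of differentiating mESCs that had received only the vehicle DMSO was compared between 24 h and 6 h of treatment. This is a step of 18 h of differentiation in cultures to which DMSO was added on day 4. Time since that addition and time of differentiation coincide and cannot be told apart. The comparison rests on 4 of the 16 samples of the series, 2 cultures labelled control at 6 h and 2 labelled control at 24 h, which were chosen by these labels alone. The cells were CGR8-Myh6-GFP mESCs, a mouse embryonic stem cell line with a GFP reporter driven by the promoter of Myh6, a gene of heart muscle cells. They were plated without LIF in serum-containing differentiation medium, and DMSO was added on day 4, so that every culture of the series shares the reporter, the medium and the day. The other 12 samples received 0.25 mg/mL of WS1442, a hawthorn extract, or 0.1 mg/mL of its MeOH eluate for the same times, with 3 cultures in each group. Each sample was read on a 1-colour microarray, where the brightness of a probe measures the amount of its transcript. As the cultures were measured whole, fewer cells of a type and less RNA per cell cannot be told apart.

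Embryonic stem cells that leave the pluripotent state pass through a stage that resembles the primitive streak and form mesoderm, in which T (brachyury) and Mesp1 are transcription factors of early mesoderm. Cardiac progenitors then switch on regulators such as Gata4, Isl1 and Hand2, while related mesoderm gives rise to endothelium and primitive blood. BMP and Notch signals act at several of these steps.

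The 4 DMSO arrays came from RNA with an integrity number of 10, and between 55.5% and 63.0% of their gene spots were well above background. Across genes, the signals correlated with r = 0.994 between the 6 h cultures, 0.983 between the 24 h cultures and 0.961 to 0.975 between time points. The first principal component, 47.0% of the variance, separated the time points, and on the second the DMSO 24 h culture of replicate 1 stood apart at 66.4, against 11.7 for replicate 2. All 8 arrays at 6 h lay on 1 slide and all 8 at 24 h on the other, so slide and time cannot be told apart in any value below. RNA spiked in during labelling gave a measure of labelling and array together. Before normalization between arrays, the 7 spike-in probes well above background differed by -0.47 to -0.04 (log2, 24 h minus 6 h).

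Of 31776 genes tested, 3349 (10.5%) passed both limits of the limma fit, a change of over 2-fold and an adjusted p-value below 0.05, which is the meaning of "called" here. Of these, 1036 (3.26%) were upregulated and 2313 (7.28%) downregulated at 24 h. The rises included regulators of mesoderm and of vessels, and most rises and most falls lay among the dimmer genes. Every 24 h array differed from every 6 h array by more than 2-fold for 568 of the upregulated genes (1.79% of those tested) and 1200 of the downregulated genes (3.78%). Among the 13059 genes with a mean log2 signal over 8 in the brighter group, 262 were upregulated and 402 downregulated, against 774 and 1911 of the 18717 dimmer genes. In 736 of the 2313 falls, neither 24 h array was well above background. The limma fit took its estimate of spread from all 16 arrays, and a fit of the 4 DMSO arrays alone called 2724 genes (954 higher, 1770 lower). The count was 181 (100 higher, 81 lower) by limma's treat, which tests against 2-fold itself, 569 with normexp background correction, and 9 by the methods' t-test after Benjamini-Hochberg adjustment. Without DMSO 24 h replicate 1, 987 genes were upregulated and 1676 downregulated.

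**Figure D1:**
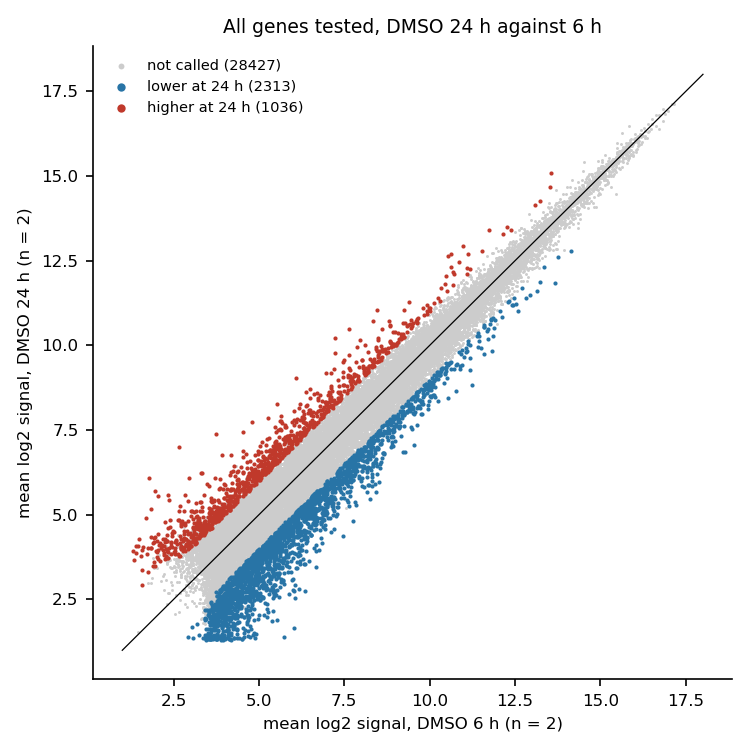
Mean log2 normalized signal of each gene tested at 24 h (vertical axis) against 6 h (horizontal axis) in DMSO cultures, n = 2 arrays per mean. The 1036 upregulated genes in red lie above the line of equality, and the 2313 downregulated genes in blue crowd at low signals.

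The markers given with the comparison moved in different ways. Gata4, a transcription factor of cardiac and endodermal progenitors, read 7.97 and 8.12 at 6 h and 9.37 and 9.41 at 24 h on the log2 scale. Both 24 h cultures lay above both 6 h cultures, a rise of 1.35 ± 0.14 (log2 fold change ± SE of the fit, n = 2 against 2) or 2.55-fold, with an adjusted p of 5.18e-06 by limma. Pou5f1 (Oct4), the central factor of pluripotency, read 13.66 and 13.76 at 6 h and 12.83 and 12.87 at 24 h. It was lower at 24 h on both arrays, by -0.87 ± 0.07 (limma adjusted p = 7.41e-07), which is less than 2-fold, and it stayed among the brighter genes of both time points. After scaling to the 75th percentile or to the spike-in spots, the difference of Pou5f1 was -0.63 in each case. T read 7.93 and 7.91 at 6 h and 7.66 and 7.47 at 24 h, a difference of -0.35 ± 0.12 (limma adjusted p = 0.0236). The T values did not overlap, but the adjusted p was 0.0744 to 0.166 without either 6 h culture or without 24 h replicate 2. Mesp1 read 7.66 and 8.00 at 6 h and 7.64 and 7.76 at 24 h, so that the groups overlapped (-0.13 ± 0.15, limma adjusted p = 0.533). When limma was fitted to the 4 DMSO arrays alone, the adjusted p was 0.00192 for Gata4 and for Pou5f1, and 0.0517 for T.

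Nanog, a pluripotency factor, read 6.17 and 6.40 at 6 h and 5.30 and 5.41 at 24 h (-0.93 ± 0.18, limma adjusted p = 0.00103), and Sox2 differed by -0.06 ± 0.17 (limma adjusted p = 0.81). Of 17 tested genes of naive pluripotency, 1 was called, and it was higher, beside 3.26% of all genes. In that list 9 genes were higher and 8 lower at 24 h, with a median of 0.10. Of the 22 tested genes of formative and primed epiblast, 2 were called, both lower, a share near the 7.28% called lower over all genes. They were L1td1, an RNA-binding protein of pluripotent cells, at -1.27 ± 0.07, and Utf1, a chromatin protein of such cells, at -1.24 ± 0.09. The median of this list was -0.35, against -0.00 over all genes tested, and 17 of its 22 genes were lower at 24 h. After scaling to the 75th percentile or to the spike-in spots the median was -0.14 and -0.15. Of the 24 tested genes of primitive streak and early mesoderm, 1 was called, Rspo3, an amplifier of Wnt signals, at 1.098 ± 0.10, and without DMSO 6 h replicate 1 it was no longer called. The 1 call in 24 lies near the 3.26% called higher over all genes. The streak factors Mixl1 (-0.77 ± 0.07) and Eomes (-0.14 ± 0.10) were under 2-fold. Of the markers of heart muscle cells, the myosin heavy chains Myh6 and Myh7 had no probe well above background on every array of any group. The troponin gene Tnnt2 differed by 0.14 ± 0.13, and the cardiac actin gene Actc1, bright at both times, by -0.69 ± 0.10.

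Transcription factors of cardiac progenitors held the most upregulated genes in proportion to size among the 27 lists compared, with 8 of 23 tested members called higher and none lower. Over all genes, 3.26% were called higher and 7.28% lower. The Notch and segmentation list held 7 of 23 called higher. All lists were written with earlier results of these data known, so their order only describes these lists. Foxf1, a forkhead factor of lateral plate mesoderm, read 6.23 and 5.94 at 6 h and 9.04 and 9.05 at 24 h. The 24 h cultures were nearly equal and far above both 6 h cultures, a 7.80-fold rise (2.96 ± 0.14, limma adjusted p = 2.55e-08). Tbx2, a T-box factor of the developing heart, read 5.60 and 5.63 at 6 h and 7.89 and 7.66 at 24 h (2.16 ± 0.16). The forkhead factors Foxc1 (2.06 ± 0.17) and Foxc2 (1.89 ± 0.12), the homeobox factor Meis2 (1.49 ± 0.10), Isl1, a factor of the second heart field (1.30 ± 0.14), and Hand2, a factor of heart and limb (1.29 ± 0.15), were called along with Gata4. All 8 were called with each DMSO array left out in turn. With normexp background correction 5 of the 8 were called. The heart factors Nkx2-5 (-0.15 ± 0.22), Tbx5 (-0.01 ± 0.46) and Tbx20 (0.39 ± 0.20) were not called, and the median of the list was 0.21. Among sarcomere and smooth muscle genes, Myl7, the atrial myosin light chain, read 7.65 and 8.01 at 6 h and 9.37 and 9.66 at 24 h. It was the 1 gene of 23 tested that was called higher (1.68 ± 0.18), beside Pln, a regulator of the calcium pump, called lower (-1.73 ± 0.31). The share called higher was near the 3.26% over all genes, and the share called lower was under the 7.28%. The list's median was -0.42.

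Of 16 tested signals of lateral plate and cardiac mesoderm, 3 were called higher and 1 lower, beside 3.26% and 7.28% of all genes. Bmp5, a BMP ligand, was not well above background on either 6 h array (2.62 and 1.32) and read 5.65 and 5.73 at 24 h, at least 5.38-fold higher. Cfc1 (Cryptic), a co-receptor for Nodal, read 7.60 and 7.69 at 6 h and 10.34 and 10.62 at 24 h (2.84 ± 0.17). Fgf10, a growth factor of mesoderm, rose by 1.104 ± 0.10, while Cited1, a transcriptional co-regulator, was lower by -1.37 ± 0.18. Bmp4 was at 0.97 ± 0.09.

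**Figure D2:**
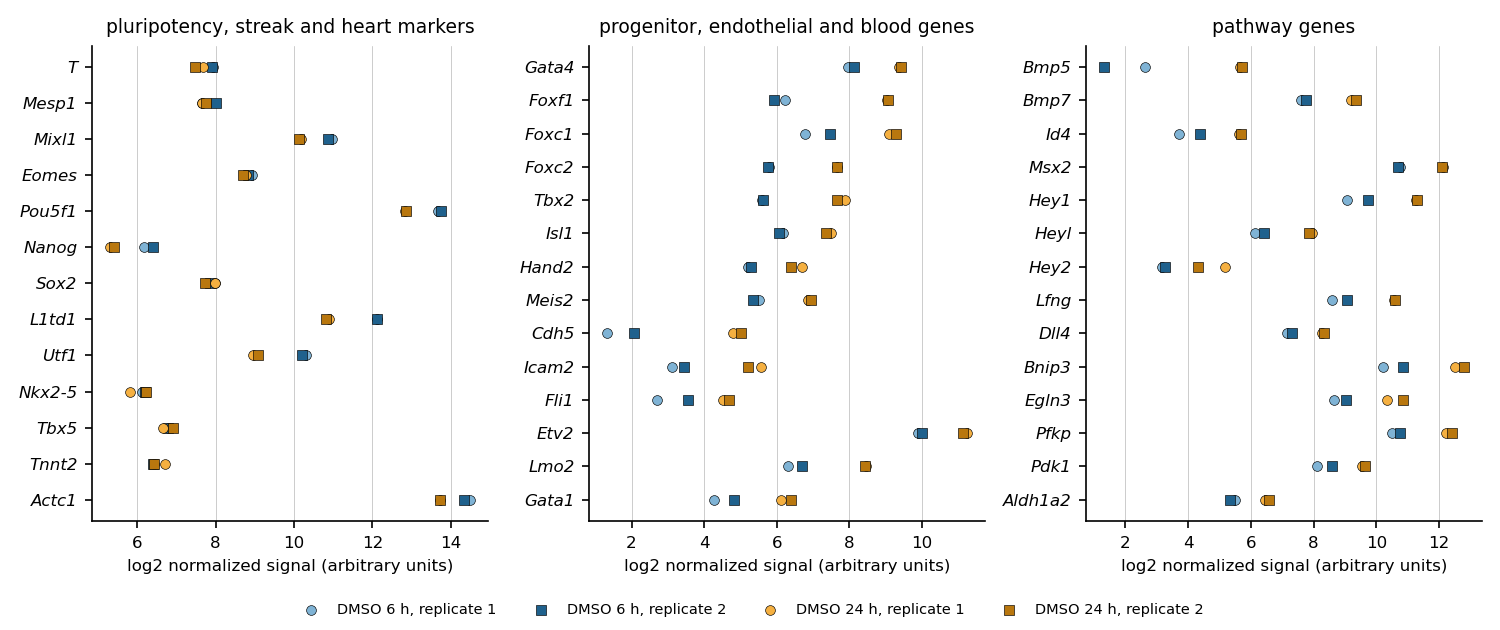
Log2 normalized signal of named genes on each of the 4 DMSO arrays (points; colour gives the time point, shape the replicate). Gata4 lies near 8 at 6 h and near 9.4 at 24 h, while the values of T, Mesp1, Eomes and Sox2 at the time points lie close together.

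In the endothelial list 14 tested genes were higher at 24 h and 4 lower (median 0.41), and in the blood list 8 and 8 (median 0.005). The called members of both lists were all higher, beside 3.26% of all genes called higher. Cdh5 (VE-cadherin), the junction protein of endothelium, was not well above background at 6 h (1.33 and 2.07) and read 4.81 and 5.01 at 24 h, at least 3.13-fold higher. Etv2, the factor that starts the endothelial and blood programme, read 9.88 and 9.99 at 6 h and 11.24 and 11.13 at 24 h (1.25 ± 0.11). With Icam2, an adhesion molecule (2.10 ± 0.29), and Fli1, an ETS factor (1.48 ± 0.38), 4 of 18 tested endothelial genes were called, all higher. Icam2 and Fli1 were well above background on 1 of the 2 arrays at 6 h. The receptor gene Kdr was at -0.43 ± 0.10 and Pecam1 at -0.62 ± 0.18, both under 2-fold. Of 16 tested genes of primitive blood, 3 were called higher: Lmo2, a bridging factor of blood formation (1.93 ± 0.16), Gata1, the erythroid factor (1.71 ± 0.36), and Itga2b, an integrin of early blood cells (1.41 ± 0.22). The gene Tal1 had 2 kept probes that differed by 0.96 and 4.36, so its size is uncertain. With normexp background correction, 1 endothelial and 1 blood gene were called.

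The counts that follow stand beside 3.26% called higher and 7.28% called lower over all genes. Of 21 tested genes of the BMP pathway, 6 were called higher (4 with normexp background correction) and none lower, with a median of 0.60. Besides Bmp5 these were the ligand Bmp7 (1.59 ± 0.12), Id4, an inhibitor of bHLH factors (1.60 ± 0.34), Msx2, a homeobox target (1.39 ± 0.09), Tbx3 (1.28 ± 0.10) and Gata4. In the Notch and segmentation list, 7 of 23 tested genes were called, all higher, with a median of 0.59. Hey1, a Notch target repressor, read 9.06 and 9.74 at 6 h and 11.28 and 11.30 at 24 h (1.89 ± 0.34). Lfng, which modifies Notch receptors (1.75 ± 0.20), the repressors Heyl (1.63 ± 0.16), Hey2 (at least 2.69-fold) and Hes5 (1.03 ± 0.10), the ligand Dll4 (1.08 ± 0.12) and Ripply2, a segmentation gene (at least 1.68-fold), were the others. Neither Hey2 nor Ripply2 was well above background on any 6 h array. Fewer genes of the list were called without DMSO 6 h replicate 1 (list median 0.44). More were called, in both directions, without DMSO 6 h replicate 2 (list median 0.75). With normexp background correction 3 were called, all higher. Of 20 tested Nodal and activin genes, Cfc1 and Inhbb, an activin subunit (2.00 ± 0.26), were called higher and Lefty1, a secreted Nodal inhibitor, lower (-1.09 ± 0.09). Among 30 tested Wnt genes, Rspo3 was called higher, and Dkk1, a secreted Wnt inhibitor (-1.82 ± 0.16), and Rspo2 (-1.36 ± 0.43) lower. Both Wnt shares were near those over all genes. Rspo2 was not called without 24 h replicate 1 (-0.64), without either 6 h culture (-1.51 and -1.21) or in the fit of the 4 DMSO arrays alone. Of 16 tested retinoic acid genes, 4 were called higher: the binding proteins Crabp1 (1.17 ± 0.22), Crabp2 (1.16 ± 0.10) and Rbp4 (1.04 ± 0.17), and Aldh1a2, which makes retinoic acid (1.102 ± 0.17). Without DMSO 6 h replicate 1, after scaling to the spike-in spots or with normexp background correction, 2 of these genes were called.

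All 25 tested genes of the hypoxia and glycolysis list were higher at 24 h, with a median of 0.74, and 5 were called. Over all genes, 3.26% were called higher and 7.28% lower. Bnip3, a mitochondrial protein induced when oxygen is low, read 10.20 and 10.86 at 6 h and 12.50 and 12.80 at 24 h (2.12 ± 0.23). Egln3, an oxygen sensor (1.75 ± 0.16), the glycolytic enzyme Pfkp (1.68 ± 0.09), Pdk1, which limits pyruvate entry to mitochondria (1.23 ± 0.15), and P4ha1, a collagen-modifying enzyme (1.07 ± 0.10), were the other called genes. The glucose transporter Slc2a1 was at 0.70 ± 0.08 and Vegfa at 0.10 ± 0.12. The second kept probe of Pdk1 differed by -0.23. The number called was 3 without DMSO 6 h replicate 1, 10 without DMSO 6 h replicate 2, and 11 after scaling to the 75th percentile or to the spike-in spots. Genes of the cell cycle and replication held no called member among 34, with a median of 0.18. The ATF4 amino acid response held 4 higher of 24 tested, among them Trib3, a stress-induced pseudokinase (1.92 ± 0.15), and 1 lower.

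**Figure D3:**
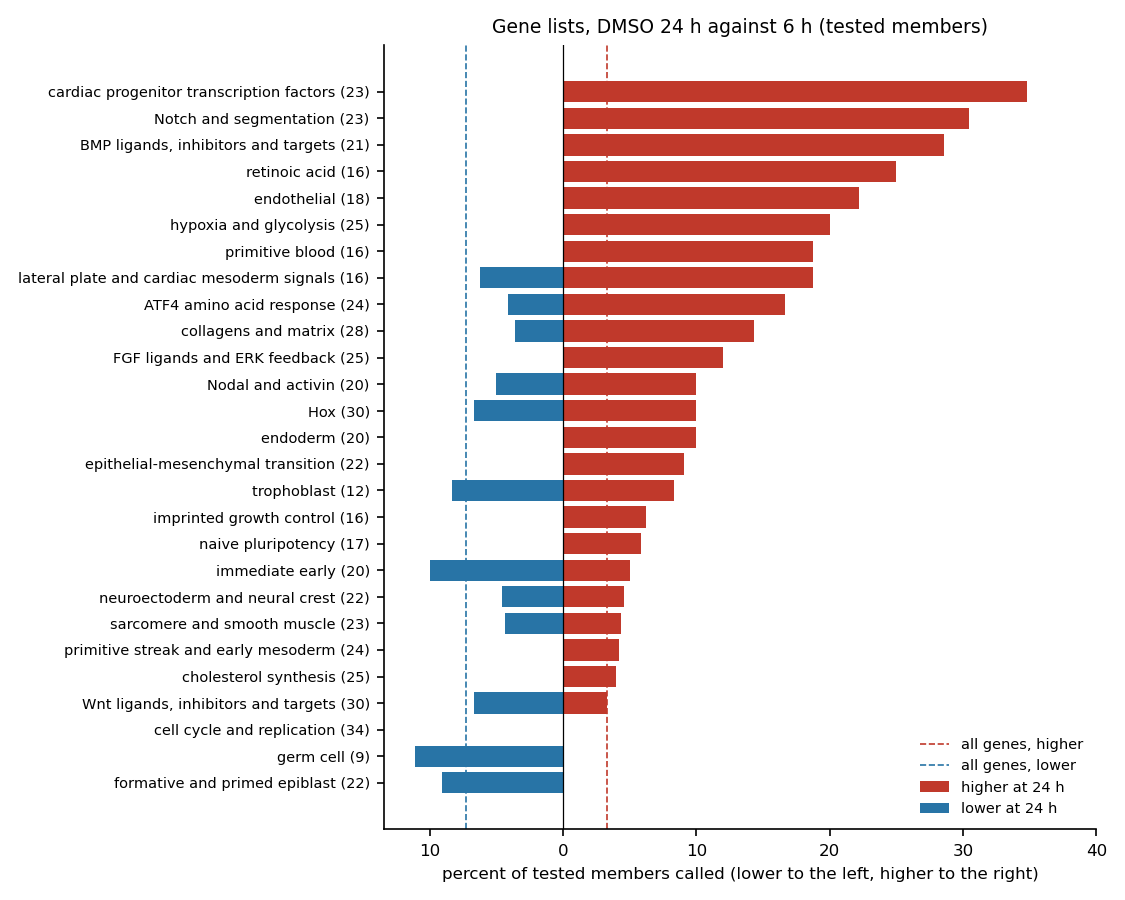
Percent of the tested members of each of 27 gene lists (number in brackets) called higher at 24 h (red, right) or lower (blue, left) in DMSO cultures. Dashed lines mark all genes, 3.26% higher and 7.28% lower. Cardiac progenitor transcription factors are at 8 of 23 called higher and Notch and segmentation at 7 of 23. The lists were written with earlier results of these data known.

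The regions upstream of called Notch and hypoxia genes were searched for a binding core, and the windows of some genes that hold a match are shown. The windows are the 250 bases before the RefSeq start (GRCm38.p6), given 5′ to 3′ on the gene's strand. Capitals mark GTGGGAA, the core bound by RBPJ, or ACGTG, the core of a hypoxia response element, on either strand. Hes5 lies at chr4:154960673-154960922 (+), Lfng at chr5:140607091-140607340 (+), Bnip3 at chr7:138909507-138909756 (-) and Egln3 at chr12:54203875-54204124 (-).
Hes5: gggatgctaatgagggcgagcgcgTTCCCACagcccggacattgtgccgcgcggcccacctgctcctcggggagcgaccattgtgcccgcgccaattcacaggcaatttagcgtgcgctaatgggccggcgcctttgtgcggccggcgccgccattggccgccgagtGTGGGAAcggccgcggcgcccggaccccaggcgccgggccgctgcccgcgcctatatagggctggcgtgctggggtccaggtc
Lfng: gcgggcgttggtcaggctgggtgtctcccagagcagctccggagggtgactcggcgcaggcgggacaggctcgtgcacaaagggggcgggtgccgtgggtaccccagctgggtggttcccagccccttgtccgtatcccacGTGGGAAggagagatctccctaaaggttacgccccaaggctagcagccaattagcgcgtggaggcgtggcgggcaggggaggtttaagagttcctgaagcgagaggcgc
Bnip3: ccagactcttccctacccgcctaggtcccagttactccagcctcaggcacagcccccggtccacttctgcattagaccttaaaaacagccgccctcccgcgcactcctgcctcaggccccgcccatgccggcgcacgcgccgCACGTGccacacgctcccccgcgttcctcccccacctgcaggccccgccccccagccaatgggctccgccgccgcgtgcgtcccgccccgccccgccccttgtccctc
Egln3: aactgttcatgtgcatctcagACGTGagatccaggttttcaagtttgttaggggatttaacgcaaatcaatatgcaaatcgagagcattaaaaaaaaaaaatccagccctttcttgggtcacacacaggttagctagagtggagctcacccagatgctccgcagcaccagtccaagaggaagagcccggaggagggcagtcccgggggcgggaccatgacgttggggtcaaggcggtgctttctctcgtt
The RBPJ core was present in a window of 6.2% of 27025 genes and of 3 of the 5 called Notch genes with a window (Hes5, Hey2 and Lfng), but not of Dll4 or Ripply2. Hey1 and Heyl had no window listed. The hypoxia core was present in a window of 18.5% of all genes and of 3 of 5 called hypoxia genes (Bnip3, Egln3 and P4ha1), but not of Pdk1 or Pfkp. In Bnip3 the matches on the 2 strands overlap. These matches describe letters in the windows and were not tested.

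The 15 genes named for the largest fitted rises included Hoxb6. This homeobox gene of posterior mesoderm was not well above background at 6 h (2.13 and 1.46) and read 6.21 and 5.95 at 24 h, at least 7.06-fold higher. Igfbp5, a binding protein for insulin-like growth factors, read 3.90 and 3.56 at 6 h and 7.49 and 7.28 at 24 h (3.65 ± 0.25, limma adjusted p = 2.05e-07). Pomc, the precursor of several peptide hormones, read 6.88 and 7.56 at 6 h and 10.14 and 10.29 at 24 h (2.99 ± 0.22). All of these 24 h values lay above the 6 h values, which the rule for naming the 15 genes required. Of the 1036 rises called, 1035 had no overlap between time points, as had 2303 of the 2313 falls. A lack of overlap thus nearly follows from the call and is no further support for a called gene. Spink1, a secreted protease inhibitor (2.96 ± 0.32), Aqp1, a water channel (2.93 ± 0.33), Ppp1r3c, which directs a phosphatase to glycogen (2.86 ± 0.26), S1pr3, a receptor for sphingosine 1-phosphate (2.76 ± 0.24), Rora, a nuclear receptor (at least 4.99-fold), Ctla2a (2.87 ± 0.36), Myom2, a sarcomere protein (3.07 ± 0.48), and Pilra (3.13 ± 0.55) complete the list beside Bmp5, Cdh5, Foxf1 and Cfc1. For Rora a second kept probe differed by 0.92. Of the 15 genes, 7 were well above background on both 6 h arrays, 4 (Aqp1, Ctla2a, Myom2 and Pilra) on 1 of them and 4 on neither. Those 4 measured on 1 array were not called with normexp background correction, and Myom2 was at 2.03 and 4.11 without 6 h replicate 1 and 2.

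Among 30 tested Hox genes, Hoxb6, Hoxb2 (1.53 ± 0.12) and Hoxd9 (1.37 ± 0.29) were called higher, and Hoxd4 (at least 5.11-fold) and Hoxc12 (-2.10 ± 0.29) lower. Over all genes, 3.26% were called higher and 7.28% lower, and the share of Hox genes called lower was near the latter. Among the 15 genes named for the largest fitted falls was Hotair, a long noncoding RNA from the HoxC cluster, which read 5.98 and 6.05 at 6 h and was not well above background at 24 h (1.44 and 1.90), at least 5.58-fold lower. Of the 15, 12 were not well above background on either 24 h array, so that their order has no meaning, and 3 (Ccl28, Olfr1256 and Olfr430) were on 1 of them. The others were Ccl28, Toporsl, Olfr731, Ccr8, Yipf7, Slc39a5, Olfr1256, Hoxd4, Olfr740, Fstl4, Olfr430, Gpr151, Olfr576 and Casc1. Several read far lower on 24 h replicate 1 than on replicate 2, as Ccl28 did at 1.36 against 4.28 and Olfr430 at 2.52 against 6.26. Without 24 h replicate 1, Olfr430 was not called (-1.21, limma adjusted p = 0.154). Olfactory receptor genes made up 5 of these 15, a group counted after its values had been seen. Of 602 tested sensory receptor genes (olfactory, vomeronasal, taste and trace amine), 146 (24.3%) were called lower, beside 7.28% of all genes, and 19 (3.16%) higher, beside 3.26%, with a median of -0.40, and without DMSO 24 h replicate 1 the counts were 96 and 12. With normexp background correction they were 13 and 1. The part that dim signal or that culture had in these falls was not tested.

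**Figure D4:**
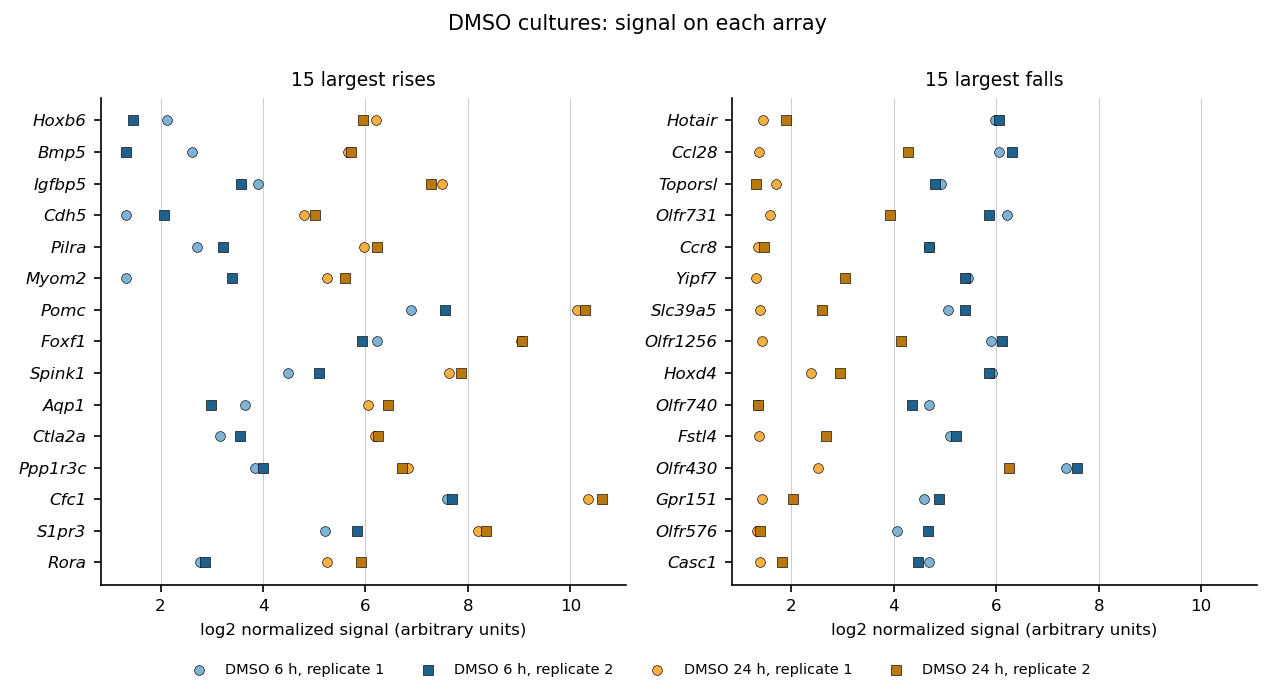
Log2 normalized signal on each of the 4 DMSO arrays for the 15 genes with the largest fitted rise (left) and the 15 with the largest fitted fall (right). Rising genes reach 4.81 to 10.62 at 24 h, while most falling genes sit near the bottom of the scale on 24 h replicate 1.

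Cultures with WS1442 or MeOH eluate were followed over the same interval, with 3 cultures at each time. They share no sample with the DMSO comparison but lie on the same slides. Of the 1036 genes upregulated in DMSO, 355 were also called higher with WS1442, which is 34.3% of them and 42.7% of the 831 genes that WS1442 called higher (2.61% of those tested). With MeOH eluate the number was 388, or 37.5% of them and 37.6% of 1032 (3.25%). Of the 2313 downregulated genes, 904 were called lower with WS1442 (39.1%, and 74.8% of its 1208, 3.8% of those tested) and 1104 with MeOH eluate (47.7%, and 72.6% of its 1521, 4.79%). Foxf1 rose by 0.99 with WS1442 and 1.27 with MeOH eluate, against 2.96 with DMSO. Pomc rose by 3.12 and 3.09, close to the 2.99 with DMSO. Of the 15 largest fitted rises, 13 were called higher with each treatment, and of the 15 falls 11 were called lower with WS1442 and 9 with MeOH eluate. The interval's change itself differed from that with DMSO, at the same limits, for 257 genes with WS1442 (0.809% of those tested) and for 445 with MeOH eluate (1.4%).

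**Figure D5:**
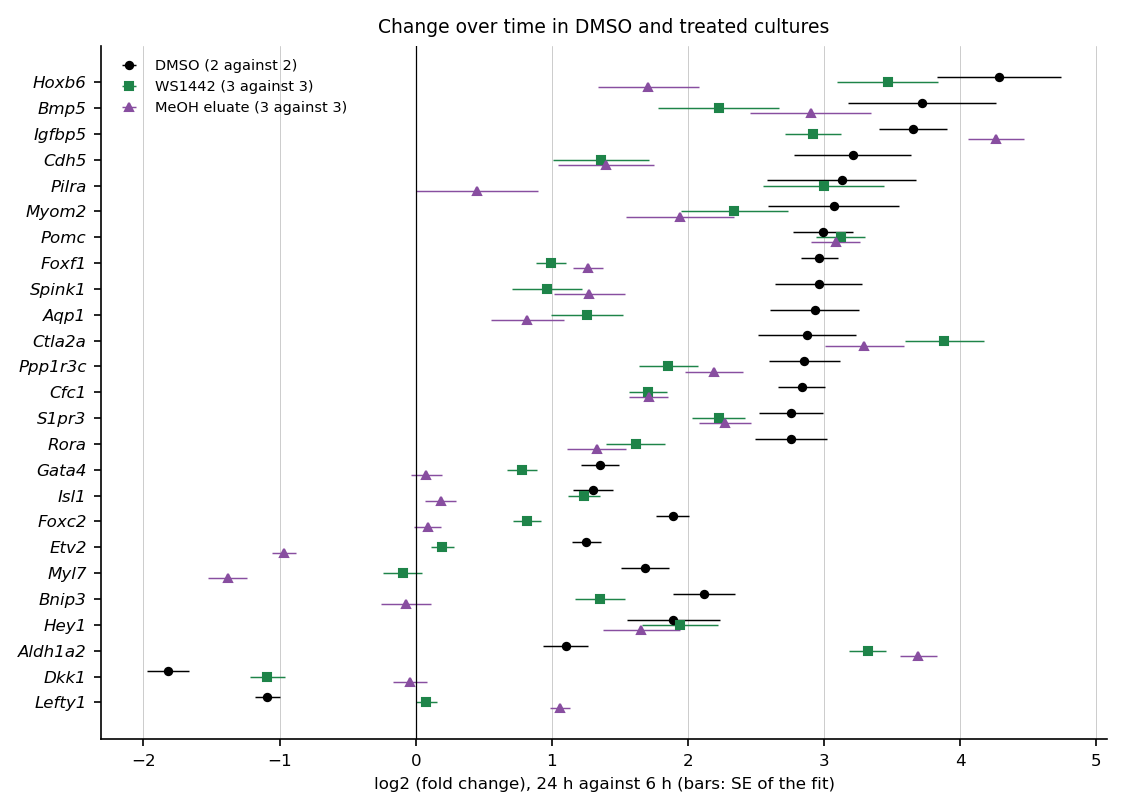
Log2 (fold change) from 6 h to 24 h in DMSO (2 against 2 cultures), WS1442 and MeOH eluate cultures (3 against 3), with SE of the fit as bars, for the 15 largest rises and 10 genes picked after their values were seen. Pomc, Hey1 and S1pr3 lie together in all 3, whereas Myl7 is at 1.68 with DMSO and -1.38 with MeOH eluate.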

How the data were processed

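RNA of 16 mESC cultures was measured on 1-colour Agilent arrays. As deposited by the authors, each array holds scanner intensities in arbitrary units, background corrected within the array by Feature Extraction 11.5.1.1 without scaling of one array to another. The authors also deposited 1 table of quantile-normalized linear intensities, which served as an alternative. Here log2 intensities were quantile normalized over 16 arrays. Spots of a probe were averaged, non-uniform spots were set missing, and 31064 of 60273 probes were named through their own accession and 2662 through listed accessions (RefSeq, GRCm38.p6). A probe had to be well above background on each array of 1 or more groups, and the brightest such probe stood for its gene. Groups followed the sample labels. A limma 3.58.1 model (R 4.3.3) with 6 group means and a signal-dependent variance prior was fitted, with Benjamini-Hochberg adjustment over all genes. Tables and figures used Python 3.11.15, pandas 2.3.3 and matplotlib 3.10.9.

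Genes were called at more than 2-fold and an adjusted p-value under 0.05. Named genes were the 4 markers, members of the 27 lists (529 of 573 genes tested) that were called or known for a defining role, and the 15 largest rises and 15 largest falls among called genes with a symbol, no overlap between time points and signal well above background on both arrays of the brighter group. A bound ("at least") was set against the lowest signal well above background on each dim array, or the probe's own signal if higher. Members and lists were chosen with earlier results of these data known. The labels do not say whether replicates were separate differentiations, so p-values measure only the spread between these samples, which may be technical, and the number of arrays limits precision. On simulated data of 31786 genes for this comparison, 99 of 100 genes changed by 2 (log2) and 100 of 100 changed by 3 were recovered, with 3 false calls. The changes were placed only in genes of higher mean signal, the noise came from the fitted variance, and no slide effect was added. These counts therefore say nothing about recovery of dim genes or about a difference between slides. The methods' t-test was an alternative, as were the normalization, background correction, filter, probe choice, test, block and each replicate left out. Other assays were not used here.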

Additional observations from a re-analysis of the deposited data

Results flagged for a closer look

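The change over time with a treatment was tested against that with DMSO in the same fit (interaction term, limma). Among 104 genes, namely the markers, the 30 largest changes and the called list members, 34 differed by over 2-fold with an adjusted p below 0.05, 16 of them with both treatments. With WS1442 18 differed and with MeOH eluate 32, beside 0.809% and 1.4% of all genes tested. Except for the markers, the 104 genes were picked by the size of their DMSO change, so a smaller change with a treatment is not independent of that choice. Values below are treated minus DMSO change on the log2 scale.

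With MeOH eluate, the differences were -1.27 for Gata4, -1.70 for Foxf1, -1.80 for Foxc2, -1.12 for Isl1, -2.22 for Etv2 and -1.04 for Tbx3, and the change of Etv2 with MeOH eluate was itself -0.97. With WS1442 the differences were -1.97 for Foxf1, -1.07 for Foxc2, -1.06 for Etv2 and -1.85 for Cdh5. The difference for T was 1.23 with MeOH eluate, with a limma adjusted p of 0.000128.

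Myl7, the atrial myosin light chain, differed by -1.78 with WS1442 and -3.06 with MeOH eluate. Pathway genes that differed with MeOH eluate were Msx2 (-1.25), Lfng (-1.13), Bnip3 (-2.19), Egln3 (-1.41), Pfkp (-1.32), Nupr1 (-1.23), Dkk1 (1.78), Loxl2 (-1.46) and Col6a3 (-1.002). Aldh1a2 differed by 2.22 with WS1442 and 2.59 with MeOH eluate, Lefty1 by 1.17 and 2.15, Fgf15 by -1.17 and -1.66, Trib3 by -1.39 and -1.87, and Cfc1 by -1.13 and -1.13.

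Of the other genes, Spink1 differed by -1.996 with WS1442 and -1.69 with MeOH eluate, Aqp1 by -1.67 and -2.11, Rora by -1.14 and -1.43, and Dazl by 1.02 and 1.44. Hoxb6 (-2.58) and Pilra (-2.68) differed with MeOH eluate, and Pax6 (1.21) with WS1442. Among falling genes the differences were 2.69 and 3.02 for Hotair, 2.86 and 2.36 for Toporsl, 2.58 and 2.73 for Fstl4, and 2.70 for Yipf7 with MeOH eluate. In DMSO cultures these 4 genes were not well above background on either 24 h array, nor were Hoxb6, Cdh5 and Rora on either 6 h array, so the size of these differences is not determined. Aqp1 and Pilra at 6 h and Pax6 at 24 h were well above background on 1 of the 2 DMSO arrays.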

How the results depend on the processing

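The 3349 called genes (1036 higher, 2313 lower) became 569 (204 and 365) with normexp background correction, 1981 (1207 lower) among probes well above background on all 4 DMSO arrays, 181 (100 and 81) by limma's treat against 2-fold, and 2048 (1209 lower) by the methods' t-test unadjusted, of which 9 (3 and 6) passed after Benjamini-Hochberg adjustment. Counted only over a mean log2 signal above 8 in the brighter group, an alternative chosen after seeing the data like that without sensory receptor genes, they were 664 (262 and 402). Without each DMSO culture in turn the total ranged from 2462 to 4001, the rises from 829 to 1162 and the falls from 1633 to 2844. Over these 4 settings the change of Gata4 ranged from 1.28 to 1.42, of Pou5f1 from -0.91 to -0.82, of T from -0.45 to -0.26 and of Mesp1 from -0.30 to 0.043, so its direction turned. Gata4 was not called by the methods' t-test (1.35, adjusted p = 0.0888) or by treat (1.35, adjusted p = 0.528). Esx1, called lower, was at 0.61 when its brightest probe had to be well above background on all 4 DMSO arrays. In treated cultures the totals ranged from 1796 to 2361 with WS1442 and from 2213 to 2699 with MeOH eluate when a culture was left out. Of 147 other called genes, 30 had no value under the filter on all 4 DMSO arrays, and 73 had a value and were called under every alternative except the methods' t-test and treat. The cause of these changes was not tested.

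The replicate numbers of the DMSO cultures do not establish pairing, since there are only 2 of each and the differences between replicates 1 and 2 at 6 h and at 24 h correlated at r = 0.12 across genes. With the replicate block the count was 3322 (1031 higher and 2291 lower), and the block ended the call of none of the 147 genes.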

Other observations

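Interferon-stimulated genes, a list written after the values were seen, held 12 called members of 21 tested, all higher at 24 h, with a median of 1.08. Over all genes, 3.26% were called higher. Irf7, a regulator of the interferon response, read 3.97 and 4.37 at 6 h and 6.73 and 6.79 at 24 h (2.59 ± 0.19). Usp18, which dampens interferon signalling (2.06 ± 0.18), Ifi27 (2.04 ± 0.13) and Ifi202b (2.44 ± 0.28) were among them. The same list held 16 called higher with WS1442 (2.61% of all genes were) and 17 higher and 1 lower with MeOH eluate (3.25% of all genes were higher). With normexp background correction, 6 were called in DMSO cultures.

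Of 13 tested genes of glycogen metabolism, also listed after the values were seen, 4 were called, all higher: Ppp1r3c, Pygl, the liver glycogen phosphorylase (2.58 ± 0.22), Pgm1, a phosphoglucomutase (2.09 ± 0.13), and Gys1, the muscle glycogen synthase (1.08 ± 0.07). The median was 0.64, beside -0.00 over all genes, of which 3.26% were called higher. The counts for both lists are descriptions, with no test.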
